A study of Mus musculus with 4 samples.

Results

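RNA was measured in FAP+ cells sorted from mouse pancreatic tumours, and the 10 genes described here are those of p53, its partner Mdm2, the CDK inhibitors and the D cyclins. They were chosen by name out of 22609 genes in the count table, which lists them in lower case as trp53, mdm2, cdkn1a, cdkn1b, cdkn2a, cdkn2b, cdkn2c, ccnd1, ccnd2 and ccnd3. All 10 were present and all 10 passed the filter on low counts, which left 13875 genes to test. FAP, fibroblast activation protein, is a surface protease of tumour stroma, and CD34 is a surface sialomucin of endothelial, haematopoietic and some stromal cells. The libraries were FAP+ CD34+ cells (2 biological replicates) and FAP+ CD34- cells (2 biological replicates), all from spontaneous pancreatic ductal adenocarcinoma on the C57BL/6 background. The labels give neither the alleles of the model, nor the age of the mice, nor the number of mice behind a library, so p-values measure the spread between these samples, which may be technical. The question addressed is whether FAP+ cells with and without CD34 differ in these genes. Paired values of a group are given in the order of the replicate numbers.

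The transcription factor p53 is held low by the ubiquitin ligase Mdm2, and stress that releases it switches on Cdkn1a and, in a feedback loop, Mdm2 itself. D cyclins, induced by mitogens, bind CDK4 and CDK6, which phosphorylate the retinoblastoma protein and so let a cell leave G1. The INK4 proteins encoded by Cdkn2a, Cdkn2b and Cdkn2c block CDK4 and CDK6, while p21 and p27, encoded by Cdkn1a and Cdkn1b, act mainly on CDK2 complexes. In fibroblasts p16Ink4a, p15Ink4b and p21 are known for their part in growth arrest and senescence.

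Cdkn2a and Cdkn2b lie next to each other in the genome, and Cdkn2a makes different proteins from different starts, p19Arf from the upstream one and p16Ink4a from the downstream one. The gene counts do not separate these. The windows around the starts of both genes, the pair on which the comparison turns, are shown with that of an upstream Cdkn1a start, because Cdkn1a is the classic p53 target. Each window runs from 250 bases before to 50 bases after a start, from RefSeq on GRCm38.p6, read 5′ to 3′ on the gene's strand. Capitals mark GC boxes (GGGCGG or its reverse complement CCGCCC), the cAMP element core TGACGTCA and a pair of p53 core letters, CATG followed after 6 bases by a second CATG. Both strands were searched for these and for the TATA box letters TATAAA, and no match overlaps another in the windows printed.
Cdkn2b, chr4:89310983-89311282, minus strand: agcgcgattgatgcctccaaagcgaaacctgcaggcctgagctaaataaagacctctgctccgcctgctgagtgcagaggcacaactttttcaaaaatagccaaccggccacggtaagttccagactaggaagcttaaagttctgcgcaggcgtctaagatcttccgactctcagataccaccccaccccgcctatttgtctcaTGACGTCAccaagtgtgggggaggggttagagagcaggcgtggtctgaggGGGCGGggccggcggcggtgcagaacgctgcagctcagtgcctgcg
Cdkn2a, upstream start, chr4:89294570-89294869, minus strand: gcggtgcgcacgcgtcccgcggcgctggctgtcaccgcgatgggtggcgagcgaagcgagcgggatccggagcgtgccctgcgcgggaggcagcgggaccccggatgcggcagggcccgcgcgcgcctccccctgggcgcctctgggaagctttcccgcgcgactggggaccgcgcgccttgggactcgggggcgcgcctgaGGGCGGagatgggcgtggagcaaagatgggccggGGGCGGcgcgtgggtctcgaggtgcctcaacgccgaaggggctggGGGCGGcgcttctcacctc
Cdkn2a, downstream start, chr4:89282143-89282442, minus strand: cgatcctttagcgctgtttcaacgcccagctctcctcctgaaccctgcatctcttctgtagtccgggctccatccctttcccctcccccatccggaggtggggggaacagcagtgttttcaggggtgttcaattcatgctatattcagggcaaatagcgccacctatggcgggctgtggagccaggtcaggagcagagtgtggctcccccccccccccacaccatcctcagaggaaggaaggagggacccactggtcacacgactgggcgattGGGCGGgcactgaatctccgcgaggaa
Cdkn1a, upstream start, chr17:29090729-29091028, plus strand: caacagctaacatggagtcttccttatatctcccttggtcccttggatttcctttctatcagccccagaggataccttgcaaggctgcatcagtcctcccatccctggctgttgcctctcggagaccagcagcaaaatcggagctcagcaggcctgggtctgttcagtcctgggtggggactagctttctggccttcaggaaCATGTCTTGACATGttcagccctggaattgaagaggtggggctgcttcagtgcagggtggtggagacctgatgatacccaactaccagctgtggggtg

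The upstream Cdkn2a window is the richest in C and G, at 77.0%, against 60.3% in the downstream Cdkn2a window and 57.7% in the Cdkn2b window. The median over all 32851 windows was 52.7%. The p53 core pair sits in the Cdkn1a window within the 20 bases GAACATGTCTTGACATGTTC, which begin at position -51 from that start, and 0.712% of all windows hold such a pair. GC boxes occur in 35.7% of all windows, the cAMP element core in 1.79% and the TATA box letters in 13.6%. A window was matched by gene ID for 8 of the 10 genes, all but Ccnd1 and Ccnd2.

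Total counts ran from 10322354 to 14633561 per library, so that 3 counts, the most that a count of 0 allows, came to at most 0.291 CPM (counts scaled by the library total; counting error only). The sort marker Cd34 stood at 143 and 293 CPM in CD34+ cells, against 18.3 and 23.9 CPM in CD34- cells. Fap, on which both fractions were sorted, stood at 79.0 and 39.8 CPM in CD34+ cells, against 142 and 136 CPM in CD34- cells, without overlap (log2 fold change -1.20, SE 0.37, adjusted p = 0.230, edgeR). Across all tested genes, edgeR's quasi-likelihood test called 0 genes at an adjusted p of 0.05, a background of 0%, and 2284 (16.5%) at an unadjusted p of 0.05. DESeq2 called 534 of 14104 genes (3.79%), of which 195 were lower in CD34+ (1.38%). Summed markers of several other cell types differed between the fractions. The summed CPM of 10 endothelial markers was 83.2 to 118 in CD34+ and 33.3 to 36.3 in CD34- libraries, and that of 8 pericyte markers 315 to 393 in CD34+ and 489 to 565 in CD34- libraries. For 11 myeloid markers it was 161 to 248 in CD34+ and 91.2 to 153 in CD34- libraries, and for 6 mesothelial markers 143 to 266 in CD34+ and 99.0 to 137 in CD34- libraries. Of the 11 myeloid markers 9 log2 fold changes were positive and 2 negative, and 3 were higher without overlap, against 23.4% of all tested genes. Of 5 tested mesothelial markers 3 were positive and 2 negative. Most of the mesothelial sum in CD34+ cells was Wt1 (206 and 120 CPM in CD34+ cells, against 57.7 and 79.3 CPM in CD34- cells). Epithelial markers summed to 626 to 883 CPM in CD34+ cells, against 509 to 857 CPM in CD34- cells, and 1 of 10 had a count of 0 in every library. The 10 fibroblast markers summed to 43904 to 45179 CPM in CD34+ cells, against 42592 to 45911 CPM in CD34- cells. Fibroblast markers far exceeded the others in every library. The 10 lymphoid markers summed to 22.6 and 5.35 CPM in CD34+ cells, against 1.82 and 1.16 CPM in CD34- cells. Cd3e made up 19.0 CPM of the sum in CD34+ replicate 1, where the other T cell markers Cd3d, Cd3g, Cd2 and Cd8a were at 0.0969 to 0.388 CPM, and Cd3e and Cd3g were at 0 in both CD34- libraries.

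Of the 10 genes, Cdkn2b alone showed CD34+ and CD34- libraries that did not overlap, against 50.1% of all tested genes (23.4% higher and 26.6% lower in CD34+), and no gene passed the adjusted threshold of edgeR. Cdkn2b was lower in CD34+ cells and passed in DESeq2. Trp53, Mdm2, Cdkn1a, Cdkn1b, Cdkn2a, Cdkn2c and the D cyclins overlapped between the fractions. Over the 10 genes 4 log2 fold changes were positive and 6 negative, with a median of -0.09 against -0.02 over all tested genes. Of all 13875 tested genes 6756 were positive and 7119 negative. At an unadjusted p of 0.05 edgeR had 1 of the 10 genes, Cdkn2b, against the background of 16.5%.

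**Figure D1:**
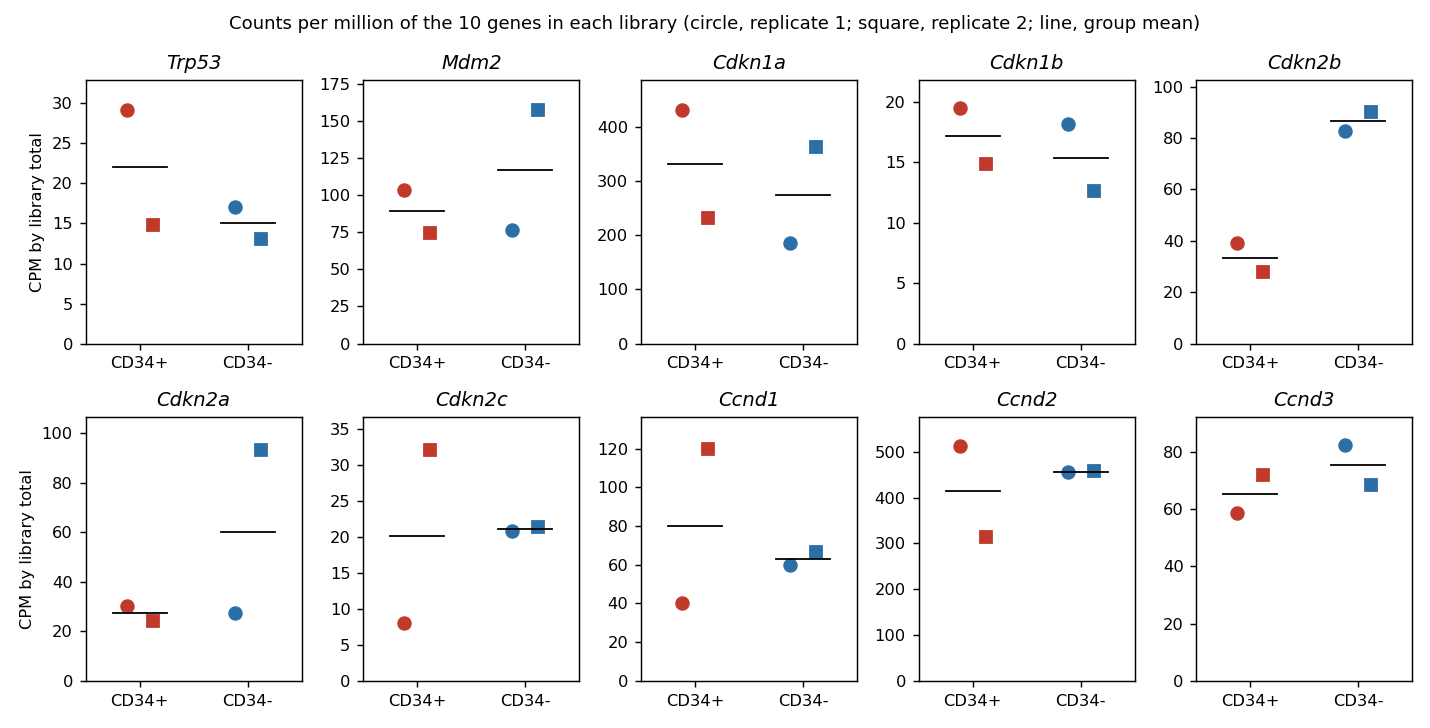
CPM by library total of each of the 10 genes in the CD34+ (left, red) and CD34- (right, blue) libraries, with circles for replicate 1, squares for replicate 2 and a line at the group mean; each vertical axis starts at 0. The groups are apart for Cdkn2b (39.1 and 27.7 CPM in CD34+, 82.7 and 90.3 CPM in CD34-) and overlap for the other 9 genes.

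Cdkn2b encodes p15Ink4b, an inhibitor of CDK4 and CDK6 that TGF-beta is known to induce. It had 39.1 and 27.7 CPM in CD34+ cells, against 82.7 and 90.3 CPM in CD34- cells. Both CD34+ libraries lay below both CD34- libraries. The means were 33.4 ± 8.09 CPM in CD34+ cells, against 86.5 ± 5.36 CPM in CD34- cells (SD, n = 2 each), a log2 fold change of -1.35 (SE 0.28), or 0.391 of the CD34- level. Its p of 0.0028 ranked 219 of the 13875 genes, and the adjusted p was 0.173 by edgeR's quasi-likelihood test, so it missed the threshold. It passed in 4 alternatives. DESeq2 called it lower (adjusted p = 0.0089; 1.38% of genes were so called), as did edgeR's exact test (0.0079; 1.48%), edgeR's quasi-likelihood test on unfiltered counts (0.029; 0.653%) and limma on log2 RPKM + 0.1 (0.045; 0.476%). Over all 16 alternatives its adjusted p lay between 0.0079 and 0.573 and its log2 fold change between -1.85 and -1.13. Without a CD34+ or a CD34- library the log2 fold change ranged from -1.66 to -1.13. The lowest value of the 16 alternatives, -1.85, came from log2 FPKM + 1, which shifted the median of all genes by -0.29. Log2 RPKM + 0.1, on which Cdkn2b was -1.78 and passed, shifted that median by -0.40. The summed pericyte markers were also lower in CD34+ libraries, but the list moved both ways. DESeq2 called 4 of 8 lower (Rgs5, Mcam, Higd1b and Ndufa4l2), and the other 4 overlapped, with Kcnj8, Notch3 and Abcc9 positive. Rgs5 was far lower in CD34+ cells (2.13 and 7.33 CPM in CD34+ cells, against 45.5 and 89.7 CPM in CD34- cells). In bulk RNA, fewer cells of a type and less RNA per cell cannot be told apart, and the part of the pericyte markers in the Cdkn2b difference was not tested. Gm12610, a long non-coding RNA gene, overlaps Cdkn2b in the annotation, and reads of the pair cannot be told apart without the strand setting of the counting.

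The genes whose profile over the 4 libraries lay nearest to that of Cdkn2b were Fcgr3, Ptger2 and 2010002n04rik. Nearness was the Euclidean distance of centred log2 CPM + 0.5 among 10520 genes of at least 5 CPM, and the distances were 0.0988, 0.191 and 0.195. Fcgr3, encoding an Fc receptor, had 12.9 and 9.08 CPM in CD34+ cells, against 28.4 and 32.9 CPM in CD34- cells. Ptger2, encoding a prostaglandin E2 receptor, had 5.04 and 3.37 CPM in CD34+ cells, against 12.9 and 13.5 CPM in CD34- cells. The likeness rests on 4 libraries and is given as a description.

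Cdkn2a, the neighbour of Cdkn2b, did not follow it. It had 30.1 and 24.2 CPM in CD34+ cells, against 27.2 and 93.3 CPM in CD34- cells. CD34- replicate 2 stood alone and the other 3 libraries lay close together. The exact 95% Poisson interval was 88.4 to 98.4 CPM in CD34- replicate 2 and 24.5 to 30.2 CPM in CD34- replicate 1. These intervals treat reads of amplified RNA as independent molecules, which they are not. They may therefore be too narrow and cannot exclude sampling error. The replicate ratio of 3.43 in CD34- was larger than that of 98.7% of the 10520 genes of at least 5 CPM (0.5 CPM added to each value). Its log2 fold change, -1.16 with an SE of 0.59 and an adjusted p of 0.376 in edgeR, rested on that library, and without it the value was 0.086. Per length, Cdkn2a over Cdkn2b was 1.15 and 1.31 in CD34+ and 0.494 and 1.55 in CD34- libraries, as a ratio of deposited RPKM (reads relative to gene length and depth).

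Cdkn2c, encoding p18Ink4c, varied most within CD34+ cells. It had 8.04 and 32.2 CPM in CD34+ cells, against 20.9 and 21.5 CPM in CD34- cells. The CD34+ libraries lay on either side of the CD34- pair, far from each other. Their exact 95% Poisson intervals, 6.40 to 9.97 and 29.2 to 35.3 CPM, did not meet, but these too leave out the amplification of the RNA. The log2 fold change was -0.063 (SE 0.59, adjusted p = 0.966, edgeR), and it was 0.59 without CD34+ replicate 1, -1.38 without CD34+ replicate 2 and 0.035 without CD34- replicate 2.

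Trp53 itself had 29.2 and 14.9 CPM in CD34+ cells, against 17.02 and 13.1 CPM in CD34- cells. CD34+ replicate 1 was highest, and CD34+ replicate 2 lay between the CD34- libraries. On the log2 scale the fold change was 0.58 (SE 0.39, adjusted p = 0.489, edgeR). It was -0.022 without CD34+ replicate 1. Nearest in profile were Supt5h, Mafg and 1500002o20rik, at distances of 0.0441, 0.0544 and 0.0835 over the 4 libraries.

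Mdm2, the ubiquitin ligase that limits p53, had 104 and 74.6 CPM in CD34+ cells, against 76.8 and 157 CPM in CD34- cells. CD34- replicate 2 was highest and the other CD34- library lay between the CD34+ ones. The log2 fold change was -0.40 (SE 0.43, adjusted p = 0.657, edgeR), and it was 0.30 without CD34- replicate 2. Mdm2 over Trp53 per length, a ratio of RPKM, was 2.19 and 3.09 in CD34+ and 2.78 and 7.41 in CD34- libraries.

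Cdkn1a, encoding p21, had 431 and 232 CPM in CD34+ cells, against 185 and 363 CPM in CD34- cells. In each fraction 1 library was high and 1 low, and the groups overlapped. The means were 332 ± 141 CPM in CD34+ cells, against 274 ± 126 CPM in CD34- cells (SD, n = 2 each), and the log2 ratio was 0.28 (SE 0.48; edgeR adjusted p = 0.794). Leaving out CD34+ replicate 1 gave -0.27, and leaving out CD34- replicate 1 gave -0.21. On log2 RPKM + 1 and log2 FPKM + 1 the values were -0.11 and -0.17, both above the median of all tested genes on those scales, -0.31. Cdkn1b, encoding p27, had 19.5 and 14.8 CPM in CD34+ cells, against 18.2 and 12.6 CPM in CD34- cells. Replicate 1 was the higher one in both fractions, and the difference between fractions of 0.19 on the log2 scale was smaller than its SE of 0.31 (adjusted p = 0.785, edgeR). It was -0.053 without CD34+ replicate 1.

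The D cyclins did not separate the fractions. Ccnd2, the D cyclin with the most reads, had 513 and 314 CPM in CD34+ cells, against 456 and 457 CPM in CD34- cells. The CD34- libraries were nearly equal and lay between the CD34+ ones. On the log2 scale the fold change was -0.12 (SE 0.34, adjusted p = 0.878, edgeR), and 0.18 without CD34+ replicate 2. Ccnd1, whose product is the most widely studied D cyclin in tumours, had 40.3 and 120 CPM in CD34+ cells, against 59.8 and 66.6 CPM in CD34- cells. It was low in the CD34+ library in which Ccnd2 was high, and high in the one in which Ccnd2 was low. The log2 fold change was 0.35 (SE 0.49, adjusted p = 0.737, edgeR), and it was -0.64 without CD34+ replicate 2. Ccnd3 had 58.5 and 71.9 CPM in CD34+ cells, against 82.6 and 68.4 CPM in CD34- cells. The groups overlapped by a narrow margin, and a log2 ratio of -0.19 (SE 0.24, adjusted p = 0.709, edgeR) kept its sign in all 16 alternatives without passing in any. In the annotation Bysl overlaps Ccnd3, LTO1 overlaps Ccnd1 and a long non-coding RNA gene overlaps Ccnd2, so reads of these pairs are uncertain too. Per length, Ccnd2 made up 69.9% and 45.3% of the summed D cyclin RPKM in CD34+ cells, against 59.1% and 61.4% in CD34- cells.

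**Figure D2:**
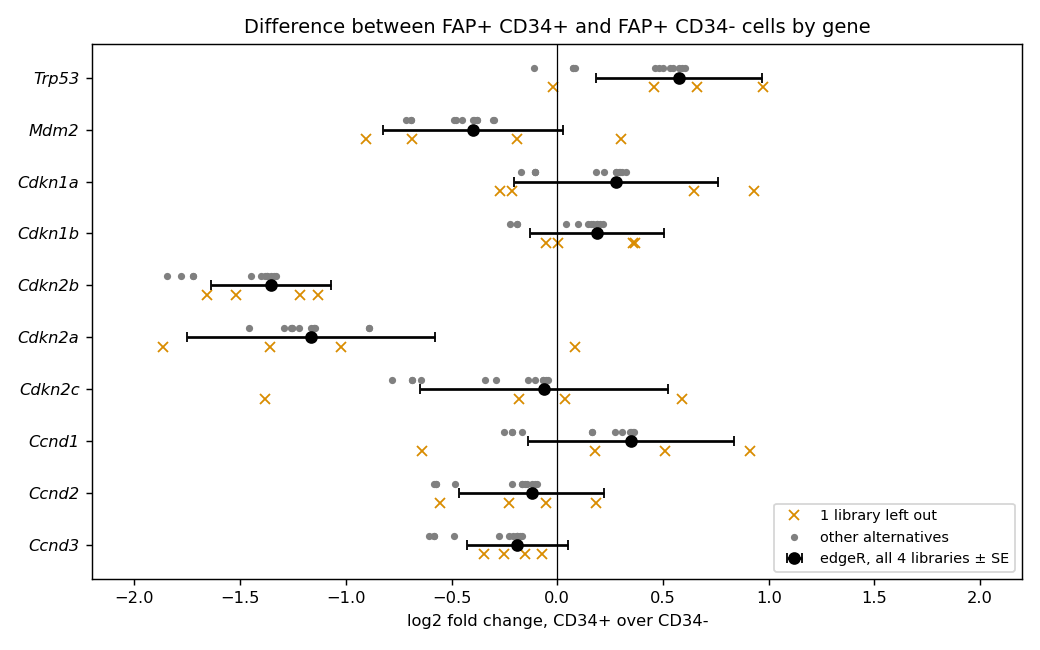
Log2 fold change of CD34+ over CD34- cells for each of the 10 genes from edgeR on all 4 libraries (black circle, bar ± SE), without 1 library in turn (orange crosses) and under the other alternatives (grey points). Cdkn2b stays between -1.85 and -1.13 in all of them, Ccnd3 stays below 0, and the other 8 genes have values on both sides of 0.

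Levels between the genes were compared per length. By mean deposited RPKM over the 4 libraries the order was Cdkn1a (113), Ccnd2 (55.6), Cdkn2a (36.9), Cdkn2b (33.6), Mdm2 (25.7), Ccnd3 (24.98), Cdkn2c (14.3), Ccnd1 (14.2), Trp53 (7.01) and Cdkn1b (4.92). Cdkn1a was first in all 4 libraries, with 125 and 87.2 RPKM in CD34+ cells, against 78.2 and 162 RPKM in CD34- cells. It lay at or above percentile 96.4 of all 22609 genes. RPKM serves here to compare genes within a library, as it ranks libraries otherwise than CPM. In CPM, CD34+ replicate 1 (431) lay above CD34- replicate 2 (363) for Cdkn1a. The mean order did not hold in each library. Cdkn2a owed its place to CD34- replicate 2, where its 86.6 RPKM lay above the 68.3 RPKM of Ccnd2, whereas it had 18.2 to 23.96 RPKM elsewhere. In CD34+ replicate 1 Trp53 (8.75 RPKM) lay above Ccnd1 (5.95 RPKM) and Cdkn2c (4.07 RPKM). The ranges of Cdkn2a, Cdkn2b, Mdm2 and Ccnd3 overlapped, as did those of Cdkn2c and Ccnd1. The order also differed between RPKM and FPKM. Ccnd2 lay above Ccnd3 in RPKM in every library (49.9 and 39.5 against 15.5 and 24.7 in CD34+, 64.6 and 68.3 against 31.9 and 27.8 in CD34-). In the deposited bias-adjusted FPKM (the same for fragments) Ccnd3 lay above Ccnd2 in every library (47.1 and 69.4 against 29.2 and 23.97 in CD34+, 82.1 and 79.0 against 38.6 and 36.2 in CD34-). The first place of Cdkn1a did not hold in FPKM either, where it was first in both CD34+ libraries, but 66.7 against 82.1 for Ccnd3 in CD34- replicate 1 and 133 against 191 for Cdkn2a in CD34- replicate 2. The RNA was amplified from the poly(A) tail, which is known to favour reads near the 3′ end. How far this set the order was not tested.

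**Figure D3:**
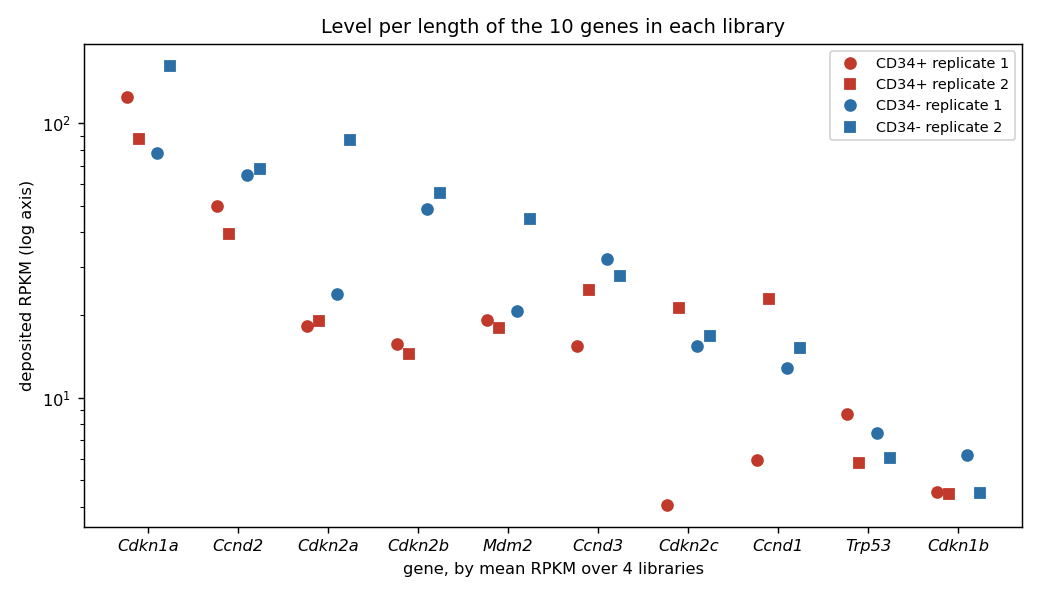
Deposited RPKM (log axis) of the 10 genes, ordered by their mean over 4 libraries, with CD34+ libraries in red left of CD34- libraries in blue. Cdkn1a is highest in each library, CD34- replicate 2 stands above the other libraries for Cdkn2a (86.6 RPKM) and Mdm2 (44.8 RPKM), and CD34+ replicate 1 stands below them for Cdkn2c (4.07 RPKM) and Ccnd1 (5.95 RPKM).

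The replicates of each fraction differed in Cdkn1a and in cell cycle genes. CD34- replicate 2 held more Cdkn1a, Mdm2 and Cdkn2a than CD34- replicate 1, and in it all 16 genes of G2 and mitosis were lower, with a median log2 ratio of -1.09 against -0.13 over all tested genes. Of 16 S phase genes 2 were higher in CD34- replicate 2 (median log2 ratio -0.76). Of 24 further p53 targets 15 were higher in it (median log2 ratio 0.24), against 5289 of all 13875 tested genes. Among CD34+ libraries, replicate 2 held less Cdkn1a and Mdm2 than replicate 1, and 15 of 16 mitosis genes were higher in it. The median log2 ratio of the mitosis genes was 0.56, against 0.04 over all tested genes. Of the 24 p53 targets 13 were higher in CD34+ replicate 2 (median log2 ratio 0.03), near the share of all tested genes, 7375 of 13875. The summed CPM of the mitosis genes was 119 and 176 in CD34+ cells, against 238 and 107 in CD34- cells. In both fractions the library with more Cdkn1a thus had fewer reads of mitosis genes. These are single pairs of libraries, so the contrasts have no replicate and no test. Summed markers of several other cell types were lower in replicate 2 of both fractions. Replicates 1 and 2 had 248 and 161 CPM of myeloid markers in CD34+ cells, against 153 and 91.2 CPM in CD34- cells. For epithelial markers they had 883 and 626 CPM in CD34+ cells, against 857 and 509 CPM in CD34- cells. For mesothelial markers they had 266 and 143 CPM in CD34+ cells, against 137 and 99.0 CPM in CD34- cells. The mesothelial fall in CD34- cells rested on Msln (75.0 and 11.6 CPM), and 3 of 5 tested mesothelial markers were higher in CD34- replicate 2. Endothelial and lymphoid sums were lower in replicate 2 as well, though 6 of 10 endothelial markers were higher in CD34- replicate 2. In CD34+ cells the lymphoid fall rested on Cd3e (19.0 and 0.293 CPM in replicates 1 and 2). Cdkn1a was lower in replicate 2 of CD34+ cells and higher in replicate 2 of CD34- cells, and the part of these markers was not tested.

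**Figure D4:**
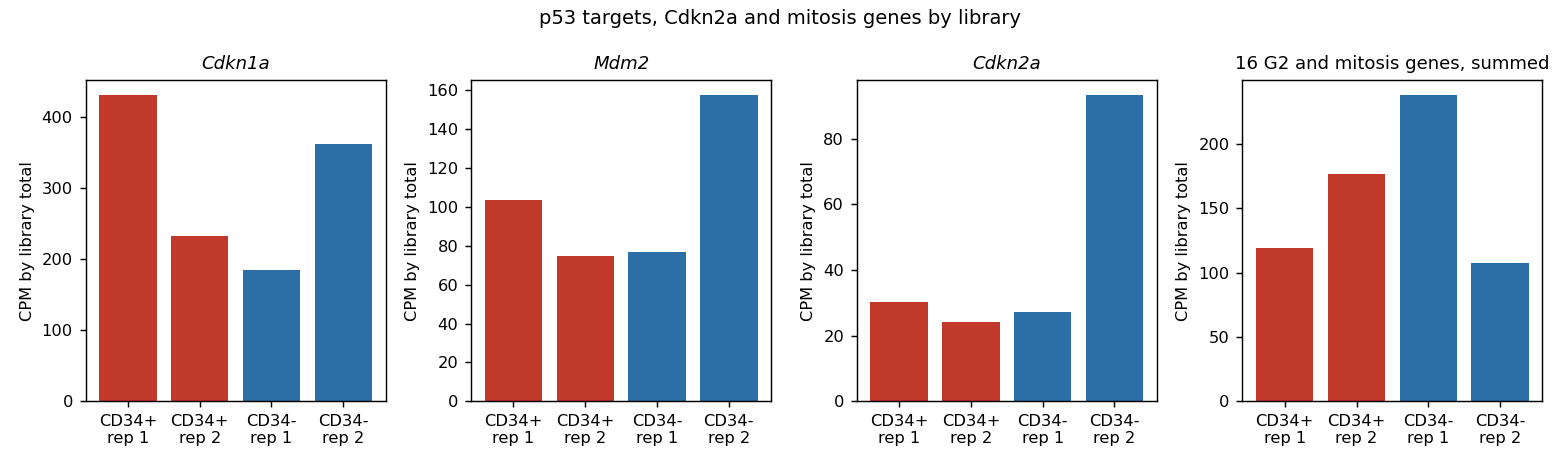
CPM by library total of Cdkn1a, Mdm2 and Cdkn2a and summed CPM of 16 genes of G2 and mitosis in each library (red, CD34+; blue, CD34-), on axes from 0. CD34+ replicate 1 and CD34- replicate 2 hold the most Cdkn1a (431 and 363 CPM) and the lowest sums of mitosis genes (119 and 107 CPM).

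The other p53 targets were mostly lower in CD34+ cells without passing the test. Of 25 listed, 24 were in the table and tested. Of these, 6 had a positive and 18 a negative log2 fold change, with a median of -0.22 against -0.02 over all tested genes. Without overlap 11 were lower and 1 higher, against 26.6% and 23.4% of all tested genes. The median difference between fractions was about as large as that between the CD34- replicates (0.24, replicate 2 over replicate 1). In edgeR 0 passed in each direction, and at an unadjusted p of 0.05, where the background was 6.65% lower and 9.81% higher, 3 were lower and 1 higher. Pmaip1, encoding the BH3-only protein Noxa, had 17.9 and 16.6 CPM in CD34+ cells, against 47.0 and 70.9 CPM in CD34- cells. The log2 difference was -1.77 (SE 0.32, adjusted p = 0.171, edgeR), and DESeq2 called it lower. Ccng1, encoding cyclin G1, had 33.4 and 64.4 CPM in CD34+ cells, against 85.4 and 150 CPM in CD34- cells (-1.27, SE 0.44, adjusted p = 0.260, edgeR). Ei24 had 39.8 and 45.1 CPM in CD34+ cells, against 66.2 and 82.8 CPM in CD34- cells. Tnfrsf10b, encoding a death receptor for TRAIL, lay the other way, with 50.2 and 25.7 CPM in CD34+ cells, against 18.1 and 14.97 CPM in CD34- cells (1.23, SE 0.38, adjusted p = 0.230, edgeR). The most abundant, the antiproliferative gene Btg2, overlapped at 621 and 569 CPM in CD34+ cells, against 587 and 852 CPM in CD34- cells. Of 13 tested regulators and relatives of p53, 7 were positive and 6 negative (median 0.01) and 0 passed. Twist1, whose product is known to restrain p53, had 17.3 and 24.03 CPM in CD34+ cells, against 45.6 and 39.2 CPM in CD34- cells, and the phosphatase gene Ppm1d 7.94 and 13.8 CPM in CD34+ cells, against 21.6 and 19.0 CPM in CD34- cells. Trp63 stayed under 1 CPM in every library, and the most abundant, the deubiquitinase gene Usp7, overlapped at 128 and 114 CPM in CD34+ cells, against 136 and 111 CPM in CD34- cells.

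Among CDK inhibitors outside the 10 genes, Cdkn1c showed the widest gap. It encodes p57, an imprinted inhibitor related to p21 and p27, and had 228 and 285 CPM in CD34+ cells, against 31.9 and 51.6 CPM in CD34- cells. Both CD34+ libraries lay far above both CD34- libraries. On the log2 scale the fold change was 2.62 (SE 0.36, adjusted p = 0.157, edgeR), missing the threshold, while several alternatives called it higher. Among them were DESeq2 (2.4% of genes called higher), the exact test (3.39%), unfiltered counts (0.924%) and log2 RPKM + 0.1 with limma (0.231%). Cdkn2d, encoding p19Ink4d, had 0.581 and 0.879 CPM in CD34+ cells, against 1.36 and 0.957 CPM in CD34- cells. Cdkn3, which encodes a phosphatase that acts on CDKs, overlapped at 0.969 and 1.68 CPM in CD34+ cells, against 2.42 and 1.09 CPM in CD34- cells. Endothelial markers were higher in CD34+ libraries as well, 9 of 10 of them without overlap and 1 the other way without overlap, against 23.4% and 26.6% of all tested genes. Their part in the Cdkn1c difference was not tested.

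CDK4 and CDK6, the partners of the D cyclins, were listed with the other CDKs and G1 cyclins. All 8 genes of that list had a negative log2 fold change (median -0.37), from -1.01 for Cdk6 to -0.080 for Cdk7. In edgeR 0 passed, and 5 of the 8 overlapped between the fractions. The other 3 were lower without overlap, against a background of 26.6% of genes lower without overlap. These were Cdk4 (123 and 136 CPM in CD34+, 189 and 168 CPM in CD34- cells), Cdk6 (4.75 and 5.86 CPM in CD34+, 14.3 and 7.59 CPM in CD34- cells) and Cdk2 (17.7 and 19.6 CPM in CD34+, 30.6 and 28.4 CPM in CD34- cells). Their log2 fold changes were -0.44 (SE 0.24, adjusted p = 0.397), -1.01 (SE 0.42, adjusted p = 0.311) and -0.64 (SE 0.24, adjusted p = 0.285, edgeR). Of 13 pocket protein and E2F genes 10 were negative (median -0.21) and 0 passed. Rb1, encoding the retinoblastoma protein, overlapped at 6.39 and 13.0 CPM in CD34+ cells, against 11.3 and 19.1 CPM in CD34- cells, and the E2F partner gene Tfdp1 had 25.2 and 37.7 CPM in CD34+ cells, against 58.1 and 48.0 CPM in CD34- cells. Among the 16 S phase genes 10 were negative (median -0.15), and among the 16 mitosis genes 11 (median -0.30), with 0 passing. Tyms, encoding thymidylate synthase, had 31.8 and 30.6 CPM in CD34+ cells, against 22.5 and 15.99 CPM in CD34- cells, whereas the ribonucleotide reductase gene Rrm1 had 59.6 and 69.6 CPM in CD34+ cells, against 93.8 and 109 CPM in CD34- cells. The mitosis genes overlapped in all 16 cases, whereas 50.1% of all tested genes did not overlap. The most abundant of them, the topoisomerase gene Top2a, had 22.8 and 41.2 CPM in CD34+ cells, against 46.8 and 19.9 CPM in CD34- cells.

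Regulators known to act on the Cdkn2a locus, not split by the direction in which they act, were set beside it. Of 13 tested, 10 were negative (median -0.54), 0 passed and 8 were lower without overlap, against 26.6% of all tested genes. Bmi1, a Polycomb gene that represses Cdkn2a, had 9.59 and 30.6 CPM in CD34+ cells, against 49.4 and 50.6 CPM in CD34- cells (-1.30, SE 0.51, adjusted p = 0.291, edgeR). Cbx7, another Polycomb gene with that role, lay the other way, with 9.59 and 12.5 CPM in CD34+ cells, against 4.31 and 5.06 CPM in CD34- cells (1.24, SE 0.38, adjusted p = 0.230, edgeR). Bmi1 was nearly equal in the CD34- libraries, between which Cdkn2a differed 3.43-fold. These are RNA levels in 2 single libraries, and the part of Bmi1 in the Cdkn2a difference was not tested.

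**Figure D5:**
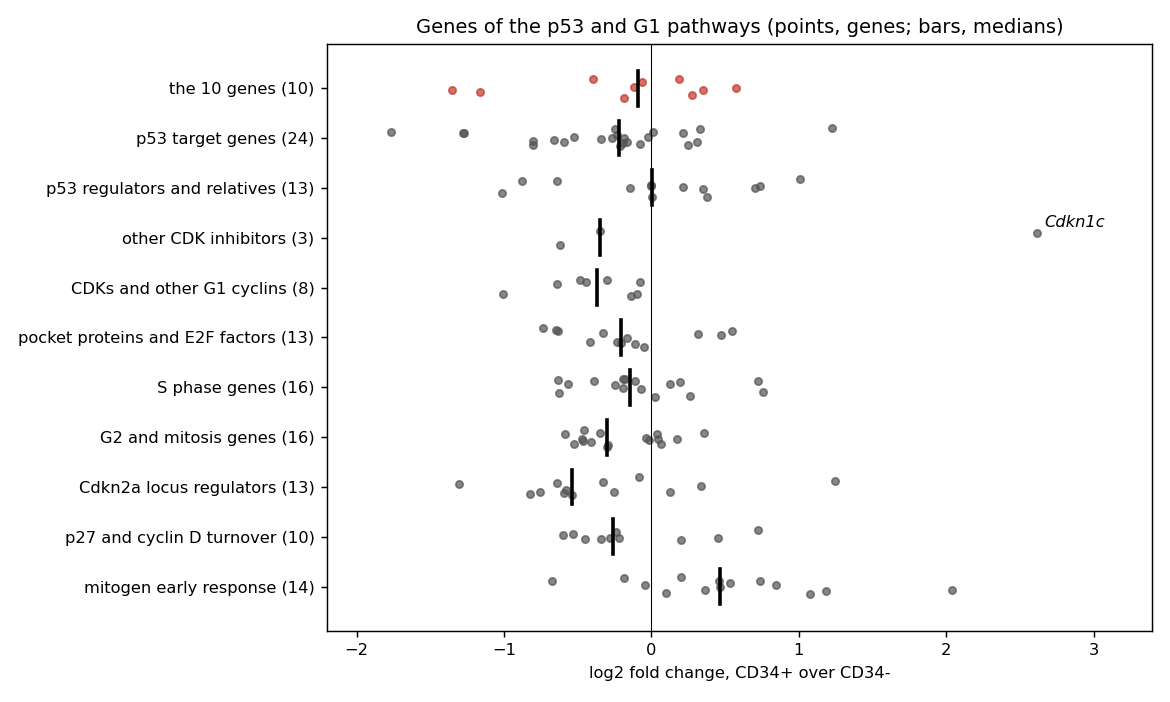
Log2 fold change of CD34+ over CD34- cells from edgeR for the 10 genes (red) and for each pathway list (grey), with a bar at the median and the number of genes tested in brackets; the vertical scatter within a row has no meaning. All 8 CDKs and other G1 cyclins lie below 0, and Cdkn1c (2.62) lies farthest to the right.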

How the data were processed

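The authors deposited whole-number counts of reads per gene for 22609 genes, not normalized, RPKM for the same genes and bias-adjusted FPKM for 22558 genes, per the file headers and table names. Bowtie2, TopHat2, HTSeq, edgeR and mm9 are named in the submitters' processing notes. Their versions, the annotation and strandedness were not given in the sources used here. Per the labels' protocols, RNA was amplified with MessageAmp, so reads are not independent molecules. There were 14 further columns per file, which match no sample of this series and were not used, nor was the table of estimated fragments.

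Groups came from the titles. Levels are CPM by column total. Counts were tested with edgeR 4.0.16 (R 4.3.3) by its quasi-likelihood F test with TMM (trimmed mean of M values) scaling, filterByExpr, the group as the only term and Benjamini-Hochberg adjustment over 13875 genes at 0.05; tests are two-sided. The SE is the absolute log2 fold change over the root of F. There are 2 residual degrees of freedom, and an exact permutation test of 2 against 2 cannot go below 0.333, so none was run. TMM factors ran from 0.961 to 1.05. Alternatives used DESeq2 1.42.0 and limma 3.58.1, with a pseudocount of 1 or 0.1 on RPKM and of 1 on FPKM. The tests were tested on simulated data with 200 changed genes. The 10 genes, the pathway and marker lists, and the tests were chosen with earlier results of these data known. Genes of the pathway lists named in the text were taken from the 4 of the smallest p and the most abundant of each list and from the lists of CDKs, pocket proteins and CDK inhibitors; not all of these are named. Some marker genes outside this rule (Cd3e and other T cell markers, Kcnj8, Notch3, Abcc9, Msln) were chosen after their values were seen. Overlaps between genes and gene neighbours come by name from RefSeq on GRCm38.p6.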

Additional observations from a re-analysis of the deposited data

How the results depend on the processing

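With all 4 libraries, edgeR's quasi-likelihood test made 0 calls higher and 0 lower, as did limma voom, RLE scaling, limma on log2 FPKM + 1 and on unfiltered log2 RPKM + 1, and each fit without 1 library. DESeq2 called 339 higher and 195 lower, edgeR's exact test 470 and 206, edgeR with no filter 194 and 137, limma on log2 RPKM + 1 5 and 7 and on log2 RPKM + 0.1 32 and 66. Column totals and a filter of 1 CPM in 2 libraries each called 2 higher. With the replicate number as a block, which no label says marks shared animals, edgeR called 39 higher and 23 lower; deviations of same-numbered libraries correlated at 0.24 over genes, and of the 10 genes 0 were called (Cdkn2b adjusted p = 0.085). DESeq2, the exact test, no filter and log2 RPKM + 0.1 each called 1 of the 10 genes lower, Cdkn2b, and 1 gene of the pathway lists higher and 1 lower; the block called 1 of the lists higher. Of 160 alternative values of the 10 genes 134 kept their sign and stayed short of the threshold, 4 passed it and 22 changed sign, 10 of them without 1 library and 12 on the RPKM and FPKM scales. Log2 RPKM + 1 and log2 FPKM + 1 each shifted the median of all genes by -0.29, and log2 RPKM + 0.1 by -0.40. With no filter the median was higher by 0.19 and with DESeq2 by 0.26, but over 20996 genes instead of 13875. On the filtered RPKM and FPKM scales each value that changed sign lay above the median of all genes. On log2 RPKM + 1, with or without a filter, Cdkn1a was -0.11, Cdkn1b -0.19 and Ccnd1 -0.21; on log2 RPKM + 0.1 they were -0.11, -0.22 and -0.25. On log2 FPKM + 1 Trp53 was -0.11, Cdkn1a -0.17 and Ccnd1 -0.17. Leaving out 1 library gave ranges of -0.022 to 0.97 for Trp53, -0.91 to 0.30 for Mdm2, -0.27 to 0.93 for Cdkn1a, -0.053 to 0.37 for Cdkn1b, -1.86 to 0.086 for Cdkn2a, -1.38 to 0.59 for Cdkn2c, -0.64 to 0.91 for Ccnd1 and -0.55 to 0.18 for Ccnd2; there a single remaining library takes its spread from the other group. Apart from gene length, RPKM differed from CPM by a factor set by the library and not by the gene. The causes of the changes without 1 library or on FPKM were not tested. The lowest count of the 10 genes in a library was 83.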

Other observations

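Early response genes, which mitogens and cell handling are known to induce within minutes, were mostly higher in CD34+ cells. Of 14 tested, 11 were positive (median log2 fold change 0.46, against -0.02 over all tested genes). In edgeR's quasi-likelihood test 0 passed and 4 were higher at an unadjusted p of 0.05, where the background was 9.81%. Without overlap 5 were higher and 1 lower, against 23.4% and 26.6% of all tested genes. Between the CD34- libraries 12 of the 14 were higher in replicate 2 (median log2 ratio 0.46, against -0.13 over all tested genes). The median difference between fractions was thus about as large as that between the CD34- replicates. Myc, encoding a transcription factor of cell growth, had 238 and 236 CPM in CD34+ cells, against 88.6 and 137 CPM in CD34- cells (log2 fold change 1.08, SE 0.33, adjusted p = 0.230, edgeR). Fosl1 had 9.59 and 3.297 CPM in CD34+ cells, against 1.66 and 1.503 CPM in CD34- cells, and Fosb 2722 and 2575 CPM in CD34+ cells, against 736 and 1588 CPM in CD34- cells. The most abundant, Fos, overlapped at 1943 and 5110 CPM in CD34+ cells, against 3304 and 3313 CPM in CD34- cells.

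Of 10 genes for the turnover of p27 and the D cyclins, 7 were negative (median -0.26) and 0 passed. Cul1, encoding a scaffold of ubiquitin ligases, had 65.2 and 62.4 CPM in CD34+ cells, against 92.5 and 94.3 CPM in CD34- cells. Cryab, encoding alpha-B crystallin, a partner of the ubiquitin ligase subunit Fbxo4, had 99.6 and 86.2 CPM in CD34+ cells, against 55.3 and 58.6 CPM in CD34- cells, and Ambra1, whose product targets D cyclins for degradation, had 35.9 and 32.2 CPM in CD34+ cells, against 27.2 and 23.5 CPM in CD34- cells.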
